A study of Caenorhabditis elegans with 6 samples.

Results

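Many Caenorhabditis elegans genes have no name drawn from a mutant or a protein family and carry only a sequence name, made of the clone that held them in the genome project and a number on that clone. The 68 genes described here are such genes whose RNA was higher in larvae of the strain hs::lin-29 than in larvae of the strain hs::control. They were chosen on the measured values. A member had a mean of at least 1 CPM (a gene's counts scaled to an equal total of gene counts in each library) over the 6 libraries, and its lowest hs::lin-29 library was at least 1.5 times its highest hs::control library. The deposited counts cover 41573 gene names, and 18649 of them are sequence names. Of these, 6339 had a mean of at least 1 CPM, and the 68 are 1.07% of them. Because the rule used the contrast between the strains, every difference between strains given below for a member is a description and supports nothing.

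The heterochronic genes time the worm's development, and LIN-29, a transcription factor with zinc fingers, is their last step. At the final molt it acts in the skin, where the seam cells stop dividing and fuse and the skin begins to make the adult cuticle, whose collagens differ from those of the larva. Genes downstream of LIN-29 are therefore best known among the named collagens, and genes with only a sequence name are largely without a described role. No role is given below for a gene that the annotation does not name.

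The study set out to find LIN-29 target genes by inducing lin-29 with a heat shock. Both strains were synchronized as L1 larvae and grown at 20 °C on E. coli OP50. At 28 h after feeding, in the L3 stage, they were kept for 30 min at 37 °C, and whole animals were collected 1 h later. There were 3 libraries of each strain, named trials in the labels, with 14553652 to 17303509 counts assigned to genes. The labels give strain names only, so the promoter, the transgene and what hs::control carries are not known here, and no library without heat shock was analysed here. The labels do not say whether trials were separate cultures, so p-values rest on library-to-library spread, which may be technical only.

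The induced gene itself, lin-29, was read at 46.9, 46.2 and 47.5 CPM in the control strain (replicates 1 to 3, mean 46.9 ± 0.678) and at 133, 494 and 336 CPM in the induced strain (mean 321 ± 181, SD, n = 3). It was higher in every induced library, with a log2 fold change of 2.82 and an adjusted p of 0.004621 by edgeR, and replicate 1 of hs::lin-29 had the smallest rise. The counts do not separate transgene reads from those of the chromosomal locus. When no gene was filtered for low counts the adjusted p rose to 0.1017, the highest of 9.004e-06 to 0.1017 over the alternatives run. The edgeR fit covered 13045 genes, of which 861 (6.6%) were called, 321 (2.46%) higher and 540 (4.14%) lower in hs::lin-29. The 321 became 162 and 135 when replicates 2 and 3 of hs::control were left out in turn, and 210 without the third hs::lin-29 library. The 540 became 328 and 324 without those same hs::control libraries, and 352 and 337 without replicates 2 and 3 of hs::lin-29.

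Markers of tissues and stages were summed in each library. In RNA of whole animals, more cells of a type and more RNA per cell cannot be told apart. The 6 adult cuticle genes (col-7, col-19, bli-1, bli-2, bli-6 and rol-1) summed to 9.01 to 20.7 CPM in hs::control and 1233 to 1988 CPM in hs::lin-29. Of the 5 that were tested all 5 rose. The 9 markers of hypodermis and seam, 2 of them listed at 0 in every library, summed to 4545 to 5422 CPM in hs::control. In hs::lin-29 they summed to 5683 to 6694 CPM, which does not overlap. Of the 7 tested 1 was called, the nuclear receptor gene nhr-25, which rose (log2 fold change 0.58, SE 0.14). The median log2 fold change of the 7 was -0.14, so the sums do not show a rise of the list as a whole. The sums overlapped between strains for intestine, body muscle, pharynx, neurons and germline. Of the 28 markers in these 5 lists 10 were listed at 0 in every library, among them 3 of 6 for neurons, 3 of 6 for germline and 2 of 4 for pharynx. Of the 17 tested 1 was called, the intestinal GATA factor gene elt-2 (log2 fold change 1.43, SE 0.18). Sperm genes, which come on from the L4 stage, summed to 4.97 to 8.48 CPM in hs::control and 6.18 to 7.44 CPM in hs::lin-29, and the yolk genes of the adult to 22.8 to 57.5 and 23.4 to 47.3 CPM. The part of the hypodermis and adult cuticle markers in the levels of the 68 genes was not tested.

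Many of the 68 were genes of low level. In 25 of them the hs::control mean was below 1 CPM, in 33 the hs::lin-29 mean was below 5 CPM, and in 7 it was at least 50 CPM. The median level was 1.81 CPM in hs::control and 5.94 CPM in hs::lin-29, and the median of the members' ratios of mean levels was 3.02. The ratio of the lowest hs::lin-29 to the highest hs::control library was at least 2 in 33 members, at least 3 in 12 and at least 5 in 5. By the same rule 90 of 5612 genes with other names (1.6%) were raised, 24 of them with a ratio of at least 5, and by the mirrored rule 152 sequence-named genes were lowered (2.4% of the 6339), as were 109 genes with other names (1.94%). Libraries of the strains did not overlap, with hs::lin-29 higher, in 616 sequence-named genes (9.72%). Without hs::lin-29 replicate 2 the rule finds 109 sequence-named genes in place of 68.

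**Figure D1:**
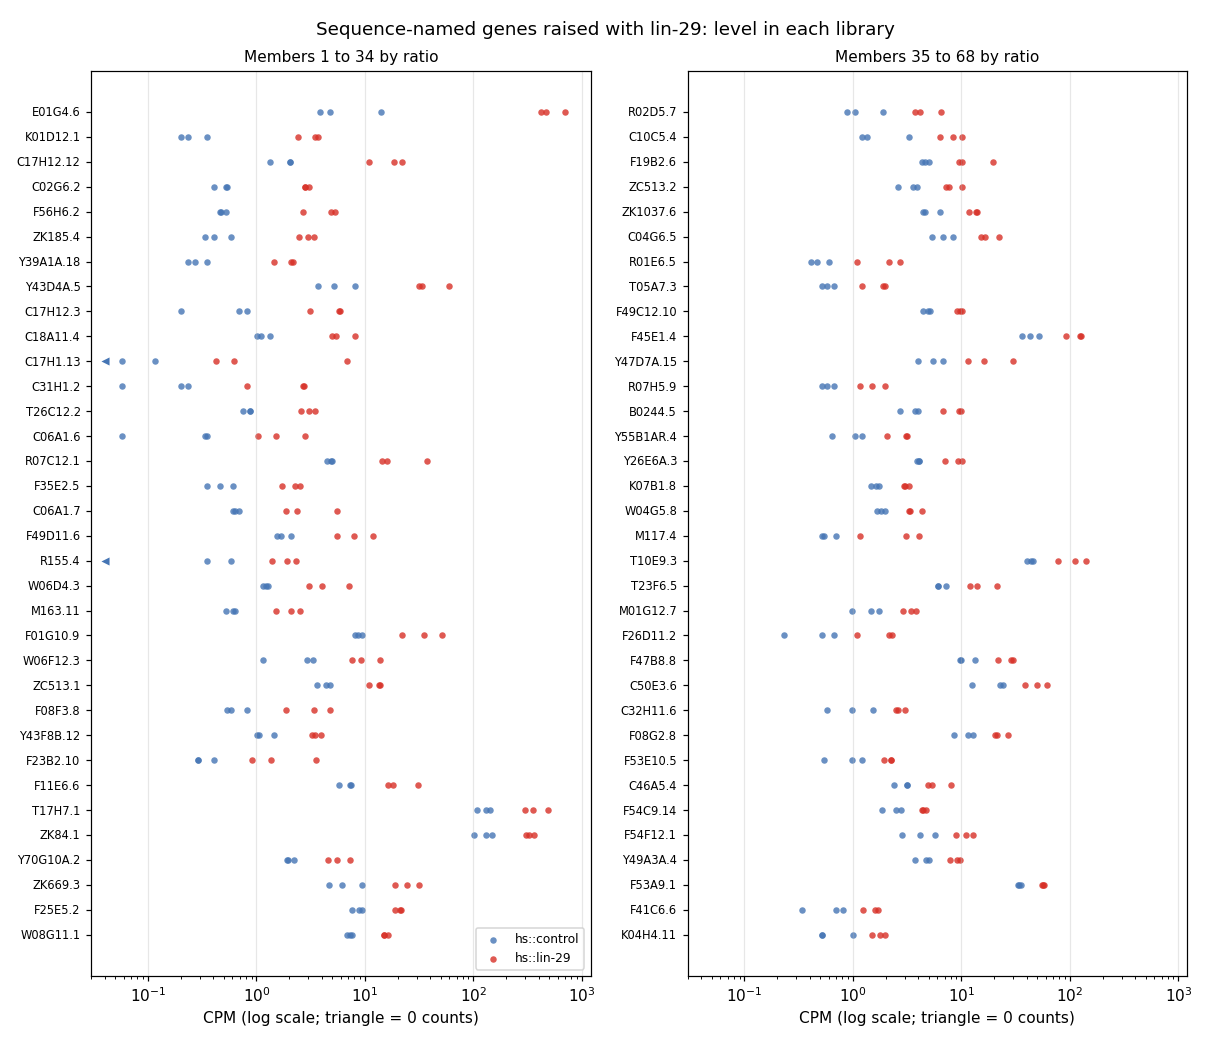
Level of each of the 68 genes in the 6 libraries, in CPM on a log scale, with 1 blue point per hs::control library and 1 red point per hs::lin-29 library, ordered by the ratio of the lowest hs::lin-29 to the highest hs::control library; triangles are libraries with 0 counts. The red points of E01G4.6 lie between 419 and 700.3 CPM, far to the right of its blue points, while most other members lie below 50 CPM in both strains.

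E01G4.6 stood apart from the other 67. Its 3 control libraries read 14.03, 4.74 and 3.83 CPM, and its 3 induced libraries 463, 419 and 700.3 CPM. Of hs::control, replicate 1 was the highest, and every hs::lin-29 library was at least 29.9 times that value. The mean went from 7.54 ± 5.64 (SD, n = 3) to 528 ± 151 CPM, a log2 fold change of 6.15 (SE 0.51), and 7.02 without hs::control replicate 1. This gene alone made up 25.1% of the summed hs::lin-29 level of the 68. It is a protein-coding gene on chromosome II with 1 annotated transcript of 4 exons and a coding length of 2652 bases, and it overlaps no other coding gene in WBcel235.

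Of the next members by ratio, K01D12.1, C02G6.2 and F56H6.2 had fewer than 10 counts in every hs::control library. C17H12.12, which ranks between them by ratio, was higher in hs::control, with 20, 35 and 35 counts against 360, 159 and 309 in hs::lin-29. K01D12.1, on chromosome V, had 3, 6 and 4 counts in the hs::control libraries and 61, 35 and 58 in the hs::lin-29 libraries, or 0.260 ± 0.0765 and 3.21 ± 0.704 CPM (log2 fold change 3.61, SE 0.36). C02G6.2, also on chromosome V, had 8, 9 and 7 counts against 46, 44 and 46 and was the most even of these genes in hs::lin-29, at 2.87 ± 0.136 CPM. F56H6.2, on chromosome I, went from 0.470, 0.520 and 0.465 CPM to 4.82, 2.68 and 5.24 CPM. With so few counts in hs::control the size of these ratios is loosely fixed, and 30 of the 68 had fewer than 30 counts in every hs::control library.

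ZK185.4 had 5, 7 and 10 counts in hs::control and 49, 36 and 56 in hs::lin-29 (log2 fold change 2.75, SE 0.33). Y39A1A.18 had 4, 6 and 4 counts against 34, 21 and 36. C31H1.2 had 3, 1 and 4 counts against 45, 12 and 45, with its hs::lin-29 replicate 2 well below the other two. The groups of libraries lay apart in each, as the rule requires. C18A11.4, on chromosome X, stood at 1.01, 1.33 and 1.10 CPM and at 8.05, 5.02 and 5.36 CPM (log2 fold change 2.44, SE 0.25).

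Y43D4A.5 combined a large ratio with a higher level. It was at 3.69, 5.14 and 8.02 CPM in hs::control, against 31.6, 33.7 and 59.9 CPM in hs::lin-29, a log2 fold change of 2.93 (SE 0.31). Its hs::control libraries differed by more than those of most members, and hs::lin-29 replicate 3 was the highest. It is a long gene on chromosome IV, with 16 exons and 4635 coding bases.

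**Figure D2:**
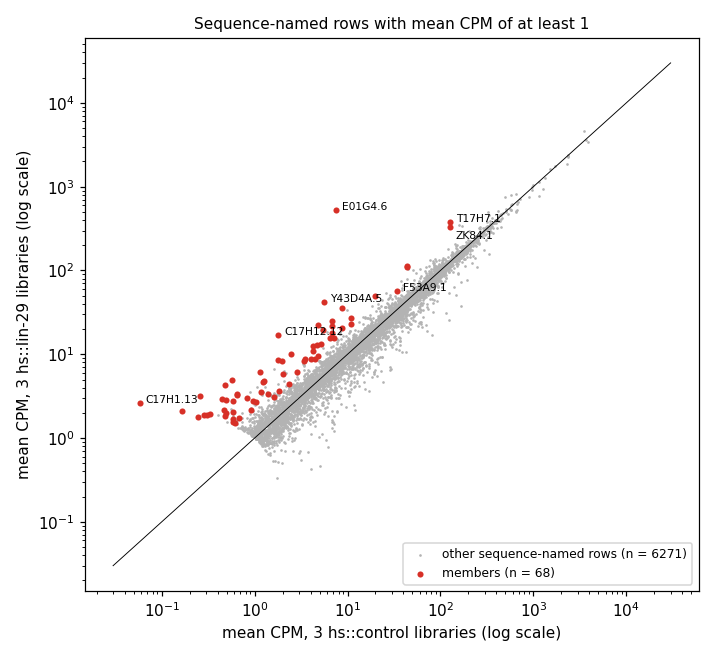
Mean CPM over the 3 hs::lin-29 libraries against mean CPM over the 3 hs::control libraries, both on log scales, for the 6339 sequence-named genes that average at least 1 CPM; red points are the 68 members and the line marks equal levels. E01G4.6, at 7.54 and 528 CPM, lies farthest above the line among the genes of higher level, and T17H7.1 and ZK84.1 are the only members above 100 CPM in hs::control.

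Among the members with the highest level in hs::control the differences were smaller than for E01G4.6. T17H7.1, now named idpp-1, was at 109, 131 and 141.7 CPM in hs::control, against 354, 297 and 489 CPM in hs::lin-29 (log2 fold change 1.61, SE 0.17). ZK84.1 was at 148, 101 and 131 CPM and at 359, 308 and 323 CPM (log2 fold change 1.40, SE 0.17). In both genes hs::lin-29 replicate 2 was the lowest of its strain and still at least 2 times the highest hs::control library.

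F45E1.4, on chromosome X, averaged 43.5 ± 8.02 CPM in hs::control and 114 ± 19.8 CPM in hs::lin-29 (log2 fold change 1.43, SE 0.14). T10E9.3, now named cpg-22 in the annotation after the chondroitin proteoglycans, was at 40.6, 45.7 and 44.2 CPM in hs::control, against 140, 77.0 and 110 CPM in hs::lin-29. C50E3.6 was at 12.6, 23.9 and 22.5 CPM and at 49.8, 38.5 and 62.0 CPM. Of these 3 genes C50E3.6 had the largest ratio of highest to lowest hs::control library, replicate 1 being the lowest.

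F53A9.1 was the steadiest of the members with higher levels. It had 33.1, 35.7 and 34.0 CPM in hs::control and 55.9, 57.9 and 55.03 CPM in hs::lin-29, a log2 fold change of 0.75 (SE 0.09), the smallest value among the 67 members tested. Its single annotated exon has 234 bases, of which 231 are coding, so almost no noncoding sequence enters its length. Per annotated length it was the most abundant member in both strains, a rank that depends on this short model. On the scale of CPM per kilobase of the longest annotated transcript, its mean level was 146 in hs::control and 240.5 in hs::lin-29. E01G4.6 followed in hs::lin-29 at 191 CPM per kilobase, from 2.72 in hs::control. T17H7.1 came next at 175, then ZK84.1 at 131, F45E1.4 at 110 and C04G6.5 at 64.2 CPM per kilobase. At the other end, C02G6.2 stood at 0.941 and R155.4 at 0.701 CPM per kilobase in hs::lin-29.

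The rest of the 12 members with the highest mean hs::lin-29 CPM were F01G10.9, F47B8.8, ZK669.3 and F08G2.8. F01G10.9 was at 9.40, 8.09 and 8.54 CPM in hs::control, against 22.1, 34.8 and 51.6 CPM in hs::lin-29, so that its hs::lin-29 libraries spread widely while its hs::control libraries were close. ZK669.3 averaged 6.75 ± 2.38 CPM in hs::control and 24.9 ± 6.21 CPM in hs::lin-29 (log2 fold change 1.91, SE 0.25). F47B8.8 and F08G2.8 reached 26.9 ± 4.48 and 22.8 ± 3.39 CPM, from 10.9 ± 2.08 and 10.9 ± 2.17 CPM in hs::control.

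In the WBcel235 annotation 7 of the 66 matched members carry a name, as do 1276 of 6157 other matched sequence-named genes of their level: C04G6.5 is txt-9, C17H1.13 is pals-11, C32H11.6 is srlf-5, F49C12.10 is nemt-1, T10E9.3 is cpg-22, T17H7.1 is idpp-1 and Y70G10A.2 is paml-1. The families were looked at after these names were seen. Within the families of these names few other genes met the rule. Of the 14 idpp genes that average at least 1 CPM idpp-1 alone did, of 13 txt genes txt-9 alone, and of 16 srlf genes srlf-5 alone. Of 10 cpg genes 2 did, the second being cpg-3, which carries that name in the tables and so is not a member. F49C12.10 (nemt-1) was at 5.17, 4.45 and 4.94 CPM in hs::control, against 9.64, 10.2 and 9.16 CPM in hs::lin-29. Y70G10A.2 (paml-1) was at 2.02 ± 0.153 and 5.77 ± 1.40 CPM, and C04G6.5 (txt-9) at 6.79 ± 1.51 and 17.97 ± 3.81 CPM.

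C17H1.13 (pals-11) reached the mean of 1 CPM through 1 library. It had 0, 2 and 1 counts in hs::control and 112, 9 and 7 counts in hs::lin-29 replicates 1 to 3, and it was the only member that did not pass the filter on low counts and so was not tested in the fit whose counts are given here. In the fits that did hold it, DESeq2 called it (adjusted p 0.013), as did edgeR without hs::lin-29 replicate 3 (0.02861). The other 5 such edgeR fits did not, with adjusted p of 0.06346 to 0.397. With hs::lin-29 replicate 1 or 2 left out it did not pass the filter. The pals genes, named after a protein signature they share, include pals-22 and pals-25, known regulators of the worm's response to intracellular pathogens. Of 32 pals genes with at least 20 counts in all libraries together, 29 were highest in replicate 1 among the hs::lin-29 libraries, and in 19 that library was at least 2 times both others. W08A12.4 (pals-33) was at 1.68, 1.73 and 1.45 CPM in hs::control, against 14.7, 3.71 and 1.57 CPM in hs::lin-29. C54D10.14 (pals-37) was at 2.28, 2.08 and 2.61 CPM and at 8.66, 1.79 and 1.08 CPM. In both genes the same library stood out, with hs::lin-29 replicate 3 within or below the range of hs::control. Of the 32 genes, 22 were highest of all 6 libraries in hs::lin-29 replicate 1. Some were instead lower in every hs::lin-29 library than in any of hs::control, among them C17H1.7 (pals-6) and C29F9.4 (pals-24). C29F9.4 was at 28.2, 34.4 and 34.2 CPM in hs::control, against 14.4, 13.5 and 14.6 CPM in hs::lin-29. The regulator genes themselves, C29F9.1 (pals-22) and T17A3.2 (pals-25), stood at 13.8 and 8.41 CPM on average in hs::control, against 14.5 and 7.18 CPM in hs::lin-29. The pals genes other than C17H1.13 summed to 136, 158 and 169 CPM in hs::control and to 192, 105 and 98.7 CPM in hs::lin-29. The part of whatever sets that library apart was not tested, and the family was looked at after the values of C17H1.13 were seen.

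Other members were also highest in hs::lin-29 replicate 1, the library with the lowest lin-29 level. It was the highest hs::lin-29 library in 35 of the 68 (51.5%), as in 47.7% of the other 6271 sequence-named genes that average at least 1 CPM, so the share of the members was close to theirs. It was the lowest in 8 members (11.8%) and in 25.96% of the others. hs::lin-29 replicate 2, with the highest lin-29 level, was the lowest hs::lin-29 library in 47 of the 68 (69.1%), against 43.6% of the other sequence-named genes and 61.1% of the 90 raised genes with other names. Of the 68, 3 followed the order of lin-29 itself, with replicate 2 above replicate 3 above replicate 1 (4.41%), as did 11.2% of the other sequence-named genes and 4.44% of the 90. The rule bears on the lowest hs::lin-29 library, so these counts are a description of 3 libraries.

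In 4 members replicate 1 was at least 2 times both other hs::lin-29 libraries (5.88%). The same held for 1.08% of the other sequence-named genes and 2.22% of the 90 raised genes with other names. Besides C17H1.13 these were F23B2.10, C06A1.7 and R07C12.1. R07C12.1 was at 4.50, 4.97 and 4.82 CPM in hs::control, against 37.1, 14.3 and 16.03 CPM in hs::lin-29, so that its other two hs::lin-29 libraries also lay well above hs::control. Without hs::lin-29 replicate 1 the log2 fold change went from 2.34 to 1.73 for C06A1.7 and from 2.57 to 1.82 for F23B2.10, the 2 members tested that moved by over 1.5 times. Without that library 8 members no longer met the rule, each because its mean over the other 5 libraries was below 1 CPM, among them C17H1.13, C31H1.2 and Y39A1A.18. Leaving out replicate 3 of hs::lin-29 also lost 8 members, and replicate 2 lost 3, for the same reason.

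**Figure D3:**
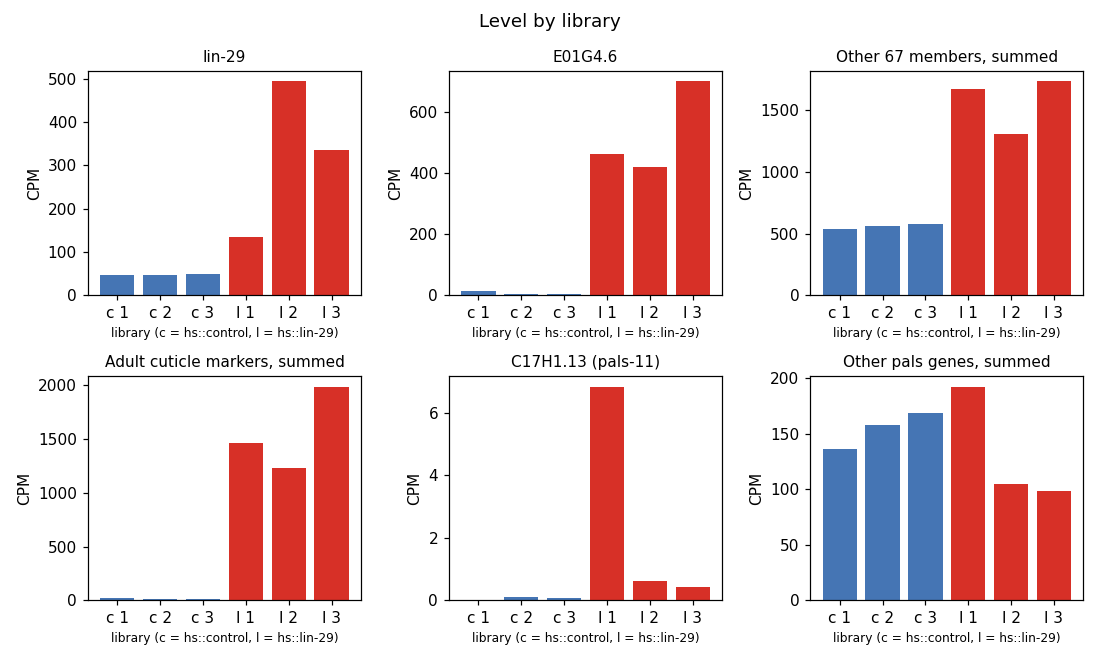
Level in each library (CPM, bars from 0) of lin-29, of E01G4.6, of the other 67 members summed, of the 6 adult cuticle markers summed, of C17H1.13 and of the other pals genes summed; blue bars are hs::control replicates 1 to 3 and red bars hs::lin-29 replicates 1 to 3. lin-29 is highest in hs::lin-29 replicate 2, whereas the summed members, E01G4.6 and the adult cuticle markers are lowest there among the hs::lin-29 libraries, and C17H1.13 is high in replicate 1 alone.

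The 67 members without E01G4.6 summed to 537, 565 and 581 CPM in hs::control and to 1677, 1309 and 1736 CPM in the hs::lin-29 libraries. The sums of the adult cuticle markers, at 1465, 1233 and 1988 CPM in the hs::lin-29 libraries, had the same lowest and the same highest library. Counted gene by gene, replicate 1 was the highest hs::lin-29 library in 35 of the 68 members and replicate 3 in 23. The highest library of the sum is thus not that of most members. Values within a strain were also spread more widely for members than for other sequence-named genes, a difference that was not tested. The median ratio of the highest to the lowest library was 1.61 in hs::lin-29 and 1.44 in hs::control, against 1.28 in both strains for the other sequence-named genes. Taken member by member, 29 of the 66 with no hs::control library at 0 had the larger ratio in hs::lin-29. For the 32 members with a mean of at least 5 CPM it was 1.53 and 1.41, against 1.22 in both strains for 4450 other sequence-named genes of at least 5 CPM.

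To see values that the choice had not used, the rule was applied to 5 libraries and the sixth was then read. Without hs::lin-29 replicate 1 the rule chose 75 genes, and in that library 60 of them (80.0%) were at least 1.5 times the highest hs::control library, as were 4.596% of all sequence-named genes that average at least 1 CPM. Without hs::lin-29 replicates 2 and 3 in turn, it chose 109 and 88 genes, of which 59.6% and 68.2% were past 1.5 times in the library left out, against 1.86% and 2.69%. With an hs::control library left out, 71 of 91, 71 of 99 and 71 of 89 chosen genes had a value in it at least 1.5 times below the lowest hs::lin-29 library, against 7.08%, 2.51% and 2.66% of all. The choice and the reading share the libraries of the other strain. A chosen gene that was also past 1.5 times in the sixth library meets the ratio of the full rule. For the left-out hs::lin-29 libraries such genes numbered 60, 65 and 60, as did the members among those chosen. The shares are therefore a description of the choice and no separate test of the members.

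**Figure D4:**
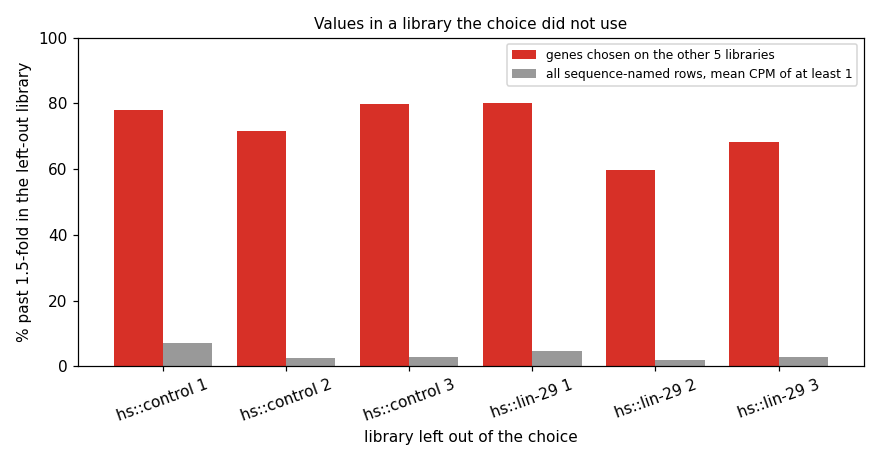
Share, in percent, of sequence-named genes chosen on 5 libraries (red) and of all sequence-named genes that average at least 1 CPM (grey) that were past 1.5 times between the strains in the sixth library, for each library left out. Red bars run from 59.6% to 80.0% and grey bars from 1.86% to 7.08%. Chosen genes past 1.5 times in the sixth library meet the ratio of the full rule, so the bars are a description.

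In the fit over all genes, 62 of the 67 members tested had an adjusted p under 0.05 by edgeR and were higher, beside the background of 2.46%, a count the rule largely fixes. Log2 fold changes of the 67 ran from 0.75 to 6.15 with a median of 1.61, where the median over all genes tested was 0.01, and 24 members were at 2 or more. The 5 that did not pass were C32H11.6, F41C6.6, F53E10.5, K04H4.11 and R07H5.9, with log2 fold changes of 1.25 to 1.42. Calls held in all 6 fits with 1 library left out for 42 of the 62. Of the other 20, K07B1.8 lost its call in all 6 fits, and F23B2.10, F54C9.14, R155.4 and W04G5.8 lost theirs in 5.

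Members just inside the ratio of 1.5 were K04H4.11, F41C6.6, F53A9.1, Y49A3A.4 and F54F12.1, with ratios of 1.501 to 1.55. Genes just outside were C03D6.1, K08D8.3, K04H4.5, Y57G11B.1 and R11E3.1, with ratios of 1.49 to 1.46. K08D8.3, at 15.6 ± 0.677 CPM in hs::control and 27.9 ± 3.78 CPM in hs::lin-29, had a larger ratio of means (1.79) than F53A9.1 inside (1.64). Y57G11B.1 is now named pals-30 and had 8, 9 and 8 counts in hs::control and 42, 20 and 13 in hs::lin-29, again highest in replicate 1.

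Of the 68 names 66 were matched to an annotated gene of WBcel235, and K07B1.8 and ZC513.1 were not. Of the 66, 64 are protein-coding, K04H4.11 is a noncoding RNA gene and R155.4 a pseudogene. R155.4 had 0, 10 and 6 counts in hs::control and 23, 28 and 38 in hs::lin-29. The 64 coding members were of a size close to that of other expressed sequence-named coding genes, with medians of 1194 bases of transcript, 1011 coding bases and 6 exons against 1192, 948 and 5 over 5884 genes. A single transcript was annotated for 58 of the 64 (90.6%), for 73.9% of the 5884 and for 87.2% of the 86 matched raised coding genes with other names. These shares were not tested.

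Members lay on all 6 chromosomes, 17 on IV and 16 on V, 9 each on II and III, 8 on I and 7 on X. Chromosome IV held 25.8% of the 66 matched members and 15.9% of the other matched sequence-named genes that average at least 1 CPM. Of the raised genes with other names 29.9% lay on chromosome II, 32.2% on V, 16.1% on IV and 3.45% on III, where 13.6% of the members lie. None of these shares was tested.

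Of the 64 coding members 6 (9.38%) had a raised gene as the next coding gene on one side, against 1.22% of 5884 other sequence-named coding genes and 18.6% of the 86 raised genes with other names. In 4 of the 6 the neighbour was another member. In all of these shares, neighbours without counts or with a mean below 1 CPM were taken as not raised. One such neighbour was str-138 beside ZC513.2, at 0.161 CPM in hs::control and 1.19 CPM in hs::lin-29. C17H12.12 and C17H12.3 are next to each other on chromosome IV, on opposite strands. C17H12.12 was at 1.34, 2.02 and 2.03 CPM in hs::control, against 21.96, 10.9 and 18.6 CPM in hs::lin-29 (log2 fold change 3.27, SE 0.27). C17H12.3 was at 0.201, 0.694 and 0.813 CPM and at 5.86, 3.09 and 5.79 CPM (log2 fold change 3.11, SE 0.41). In both, hs::lin-29 replicate 2 was the lowest of its strain.

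C06A1.6 and C06A1.7 are the second pair, on opposite strands of chromosome II. C06A1.7 had 9, 12 and 11 counts in hs::control and 90, 27 and 39 in hs::lin-29, and C06A1.6 had 5, 1 and 6 counts against 46, 15 and 25. Both were highest in hs::lin-29 replicate 1 and lowest in replicate 2. The other two members beside a raised gene were F23B2.10, next to pcp-3, and T26C12.2, next to clec-173, each pair on the same strand of chromosome IV. T26C12.2 was at 0.873, 0.751 and 0.872 CPM in hs::control, against 3.05, 3.44 and 2.59 CPM in hs::lin-29. pcp-3, named as a prolyl carboxypeptidase-like gene, was at 56.0, 43.8 and 47.6 CPM in hs::control, against 133, 135 and 107 CPM in hs::lin-29, and so did not share the high replicate 1 of F23B2.10. clec-173, of the C-type lectin family, was at 13.6, 17.4 and 18.5 CPM and at 31.7, 28.7 and 31.1 CPM.

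Of the 64 coding members 19 (29.7%) overlap another coding gene, close to the 31.03% of the other sequence-named coding genes, and 16 of the 19 overlap one on the opposite strand. The strand setting of the counting is not given in the sources used here, so reads of overlapping genes may not be told apart. R02D5.7 and clec-55 overlap on opposite strands and both met the fold rule. R02D5.7 was at 0.873, 1.91 and 1.05 CPM in hs::control, against 6.53, 3.71 and 4.16 CPM in hs::lin-29, and clec-55 at 0.470, 0.462 and 0.116 CPM and 2.26, 1.03 and 1.75 CPM. In both genes hs::lin-29 replicate 1 was the highest and replicate 2 the lowest.

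For 10 members an overlapping gene had a mean of at least 10 CPM in both strains, and the 11 such partners had ratios of mean hs::lin-29 to mean hs::control level between 0.844 and 1.53. ZK84.1 overlaps R12C12.9, which was at 46.7, 53.9 and 41.3 CPM in hs::control, against 43.9, 41.6 and 35.9 CPM in hs::lin-29, and C04G6.5 overlaps pld-1, a phospholipase D gene, at 170.0 and 172 CPM. The highest ratio belonged to K04H4.2, which the noncoding member K04H4.11 overlaps. K04H4.2 was at 582, 384 and 516 CPM in hs::control, against 738, 849 and 687 CPM in hs::lin-29. K04H4.11 had 15, 9 and 9 counts in hs::control and 29, 22 and 33 in hs::lin-29. The part of K04H4.2 in the counts of K04H4.11 was not tested. Below that level, F54F12.2 (with F54F12.1) averaged 9.74 CPM in hs::control and 9.69 CPM in hs::lin-29, and F41C6.7 (with F41C6.6) 7.61 and 11.5 CPM. T10E9.8 (with T10E9.3) averaged 8.28 and 10.8 CPM, clec-140 (with T05A7.3) 1.10 and 1.72 CPM and srt-61 (with F49D11.6) 1.47 and 0.850 CPM. Their part in the counts of these members was not tested. Many other partners are listed at or near 0, among them sdpn-1, which F45E1.4 overlaps, daf-14 with F01G10.9 and pat-12 with T17H7.1. No level is read from the values at or near 0.

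Lists of genes of the cuticle and of the pathway stood as follows beside the 2.46% higher and 4.14% lower over all genes. Of 141 cuticle collagens tested 35 rose and 4 fell, with a median log2 fold change of 0.27. Of 36 cuticlin and zona pellucida genes 1 rose (cut-6, log2 fold change 0.77), of 43 hedgehog-related genes 3 rose and 1 fell (grl-14 rose by 2.92), of 24 astacin protease genes nas-24 rose (1.48) and nas-25 (-1.86) and nas-3 (-1.56) fell, and of 23 patched-related genes 1 fell. Of 11 heterochronic genes mab-10, which encodes a cofactor of LIN-29, rose (log2 fold change 1.34, SE 0.17). Of 38 heat shock and chaperone genes 1 rose and 1 fell, and their summed level overlapped between strains, at 17728 to 23636 CPM in hs::control and 16103 to 21156 CPM in hs::lin-29.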

How the data were processed

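The authors deposited 1 table of raw counts per gene name and library. Per the submitters' processing notes, the software was STAR 2.5.2b, HTSeq 0.6.1p1, bcl2fastq 2.18, R 3.3.2 and DESeq2 1.12.3, with roles not given, and the build was ce10. Neither annotation release nor strand setting is given in the sources used here. Counts assigned to no gene were 39.7% to 41.8% of each library and were left out of totals and tests. Reads shared by near-identical genes are not counted in such tables, so members of gene families can be undercounted. Intervals over replicates cover the spread between libraries, and counts of replicates differed beyond sampling noise (lowest chi-square 10.2 per degree of freedom).

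Levels are CPM on the total of gene rows, as mean ± SD over 3 libraries. Genes passing filterByExpr (a minimum count of 10, a total of 15) were normalized by TMM, and edgeR 4.0.16's quasi-likelihood test was applied (robust, two-sided), the model holding strain alone, and p-values were adjusted by Benjamini-Hochberg with a threshold of 0.05. Approximate standard errors come from dividing the log2 fold change by the root of the F statistic. The test was tried on simulated counts of 13045 genes. It recovered 38.8% of the genes changed 1.5-fold, 74% of those changed 2-fold and 94% at 4-fold and at 8-fold, with 9 false calls. These counts were drawn for each gene separately, with no shift shared by the genes of a library. The shares and the false calls therefore hold for that setting and may differ in the real libraries. Alternatives were other scalings and filters, the DESeq2 1.42.0 Wald test, limma-voom (limma 3.58.1), a replicate block, left-out libraries and other thresholds of the rule. R 4.3.3, Python 3.11.15, pandas 2.3.3 and matplotlib 3.10.9 were used.

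Members and lists were chosen with earlier results of these data known. Named genes are the 12 members with the largest ratio, the 12 with the highest hs::lin-29 mean, those at the threshold, those beside or overlapping a raised gene, and up to 4 called genes per list; the renamed members and their families were added after their values were seen. Gene models and current names come from the Ensembl and RefSeq annotations of WBcel235, which is another build than ce10, so no coordinates are given. Protein and promoter sequences were not analysed here.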

Additional observations from a re-analysis of the deposited data

How the results depend on the processing

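The rule found 71 genes with CPM on TMM sizes and 71 with DESeq2 size factors, 67 of the 68 members among them in each, 180 at a ratio of 1.2, 33 at a ratio of 2, 32 at a mean of 5 CPM and 115 at a mean of 0.2 CPM, and 75 to 109 with 1 library left out. The replicate numbers did not pair the libraries (correlations of deviations -0.086, -0.394 and 0.126), and of the hs::control libraries replicate 3 alone correlated best with its own number. With a replicate block 206 genes were higher and 350 lower, and 55 members were called. With 1 library left out 135 to 327 genes were higher and 324 to 567 lower, 43 to 62 members were called, the members' median log2 fold change was 1.57 to 1.79 and that of lin-29 2.34 to 3.19. Without a filter on low counts lin-29 had a log2 fold change of 2.83 and lost its call; the cause was not tested. No member's direction reversed in any refit, an outcome that the rule largely fixes. Outside the left-out libraries, member calls were lost 19 times and gained 8 times over the 68 members. DESeq2 called 63 members, with K07B1.8 lost and C17H1.13 and C32H11.6 gained. Low counts limit the size of the ratio for the 30 members with under 30 counts in each hs::control library.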
